A study of Mus musculus with 12 samples.

Results

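Matrix metalloproteinases (MMPs) and the tissue inhibitors that block them (TIMPs) were described through 10 genes in mouse embryonic fibroblasts: Mmp2, Mmp3, Mmp9, Mmp10, Mmp13, Mmp14, Mmp19, Timp1, Timp2 and Timp3. The genes were chosen by symbol from the 22180 genes measured, with earlier results of these data known. Each of the 10 was read by 1 probe set, whose values are log2 levels. Mouse embryonic fibroblasts are connective-tissue cells grown out of embryos. The 12 arrays formed 4 groups of 3: wild-type cells (WT) before reprogramming (day 0), WT cells at day 4 after expression of Oct4, Sox2, Klf4 and cMyc, and Gdap1-null cells (KO) at the same 2 stages. All groups were grown in the same serum-containing medium. The treatment label is common to all arrays and names mock or factor transduction without saying which the day 0 cells had. The sources used here do not name the null allele, the strain or the age of the embryos. Nor do the labels say that the 3 arrays of a group came from separate cultures or embryos. The p-values therefore speak only of the spread between these samples, which may be technical.

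MMPs are zinc-dependent enzymes that cut the proteins of the extracellular matrix, and they are made as inactive proenzymes. Cultured fibroblasts make Mmp2, Mmp14 and Timp2 steadily. The genes of the stromelysins (Mmp3, Mmp10), of the collagenase Mmp13 and of the gelatinase Mmp9 are classically induced by cytokines and growth factors. This induction runs in part through the AP-1 transcription factors. TIMP proteins bind the active site of the enzymes, and Timp2 also takes part, with Mmp14, in the activation of the Mmp2 proenzyme at the cell surface.

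Mmp13, Mmp3 and Mmp10 lie in the cluster of MMP genes on chromosome 9 and showed the largest KO against WT differences of the 10 genes, so the bases before their start sites are shown. Sequences came from a set of RefSeq promoters (GRCm38). The set used here held 7 of the 10 genes, without Mmp2, Mmp9 and Mmp19. Each run covers the 250 bases before the annotated start, 5′ to 3′ in the direction of the gene. Capitals mark matches to the AP-1 motif TGANTCA, which reads the same on both strands, and to TATAAA, the core of the TATA box, on the gene's strand.
Mmp13 (chr9:7272264-7272513, plus strand): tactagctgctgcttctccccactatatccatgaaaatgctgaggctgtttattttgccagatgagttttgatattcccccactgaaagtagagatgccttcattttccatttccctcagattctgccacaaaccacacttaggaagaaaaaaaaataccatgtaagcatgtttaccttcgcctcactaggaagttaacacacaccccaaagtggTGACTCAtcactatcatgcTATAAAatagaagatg
Mmp3 (chr9:7445572-7445821, plus strand): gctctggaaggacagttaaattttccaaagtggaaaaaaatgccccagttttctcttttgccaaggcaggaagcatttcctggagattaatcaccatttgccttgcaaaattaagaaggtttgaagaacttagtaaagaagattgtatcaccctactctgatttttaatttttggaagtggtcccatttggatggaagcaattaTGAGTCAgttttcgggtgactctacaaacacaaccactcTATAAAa
Mmp10 (chr9:7502092-7502341, plus strand): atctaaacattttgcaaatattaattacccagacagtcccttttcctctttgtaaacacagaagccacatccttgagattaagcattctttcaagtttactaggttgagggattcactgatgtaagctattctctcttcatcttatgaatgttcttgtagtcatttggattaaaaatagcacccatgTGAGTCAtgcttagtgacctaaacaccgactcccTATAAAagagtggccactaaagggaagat
Counted from the annotated start, the AP-1 letters lay at -35 to -29 in Mmp13, at -46 to -40 in Mmp3 and at -63 to -57 in Mmp10. TATAAA lay at -16 to -11 in Mmp13, at -7 to -2 in Mmp3 and at -29 to -24 in Mmp10. These positions rest on the annotated starts, which were not checked. Of 32851 promoters of the same length, 6.75% held a match to TGANTCA and 12.4% held TATAAA on either strand. These 3 genes were the 3 of the 7 with a match to either motif, since Mmp14, Timp1, Timp2 and Timp3 had none. The ETS letters AGGAAG, on either strand (29.5% of promoters), were found in 5 of the 7, Mmp3, Mmp13, Mmp14, Timp1 and Timp3, and the RUNX letters TGTGGT, on either strand (14%), in Mmp13 and Mmp14. No 2 of the matches overlapped. A match is a description of letters and not a measured binding site.

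The 12 arrays had medians of 5.22 to 5.32. Replicates were tighter at day 0, where a gene's SD over 3 arrays had a median of 0.09 in both genotypes, than at day 4 (0.13 in WT and 0.12 in KO). WT day 4 array 1 stood apart, with a mean correlation of 0.987 to its own group, against 0.991 or more for every other array. The Gdap1 probe set gave group means between 3.00 and 3.19, at the 14.1 percentile of all genes, and at such a level it checks nothing about the genotype. Of 8 fibroblast markers 0 had a group mean under the 25th percentile of all genes, with means from 7.95 (Lum, WT day 0) to 12.83 (Vim, KO day 4) and a summed level of 14.13 to 14.39 on every array. Single markers moved (limma, adjusted p under 0.05). From day 0 to day 4, 2 rose and 4 fell in WT cells, beside 11.1% and 11.7% of all genes. In KO cells 1 rose and 4 fell, beside 13.8% and 16.9%. In KO against WT, 3 were higher at day 0 (Dcn, Pdgfra and Lum), beside 2.48% of all genes. At day 4, 2 of the fibroblast markers were higher and 1 lower, beside 8.34% and 12.4%. Their part in the changes of MMP and TIMP genes was not tested. Macrophage markers, a list of 10, were lower in KO cells in 9 of 10 cases on both days, beside 3.12% of all genes at day 0 and 12.4% at day 4. Their summed level (log2 of the sum) lay between 10.73 and 10.84 in WT day 0, 10.78 and 11.66 in WT day 4, 9.11 and 9.17 in KO day 0 and 9.30 and 9.37 in KO day 4. The 11.66 belonged to WT day 4 array 1. Of the 10, Ptprc alone had a mean (3.66 and 3.49 in KO cells) under the 25th percentile of all genes, 3.75. Whether levels above that percentile were above background was not tested. Neutrophil markers (0 of 6 past the threshold by limma on either day, 0 at an unadjusted p under 0.05) and endothelial markers (0 of 5, with 1 at day 0 and 2 at day 4 at an unadjusted p under 0.05) gave no call between the genotypes. Of the keratinocyte markers 3 of 5 were lower in KO cells at day 4, beside 12.4% of all genes, and 0 at day 0 (limma, with 1 at an unadjusted p under 0.05). Between the genotypes the macrophage markers were lower where Mmp3, Mmp10 and Mmp13 were higher. Within WT day 4, array 1 had the highest macrophage sum (11.66, against 10.87 and 10.78), which weighs markers with high levels most. That array also had the highest Mmp3, Mmp13, Mmp9, Mmp12, Mmp2, Mmp10, Mmp19 and Timp1 levels of its group, and the lowest Mmp14, Timp2 and Timp3. From day 0 to day 4 in WT cells, 1 of the 10 macrophage markers rose and 2 fell by limma, beside 11.1% and 11.7% of all genes. The part of these markers in the results on MMP genes was not tested.

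**Figure D1:**
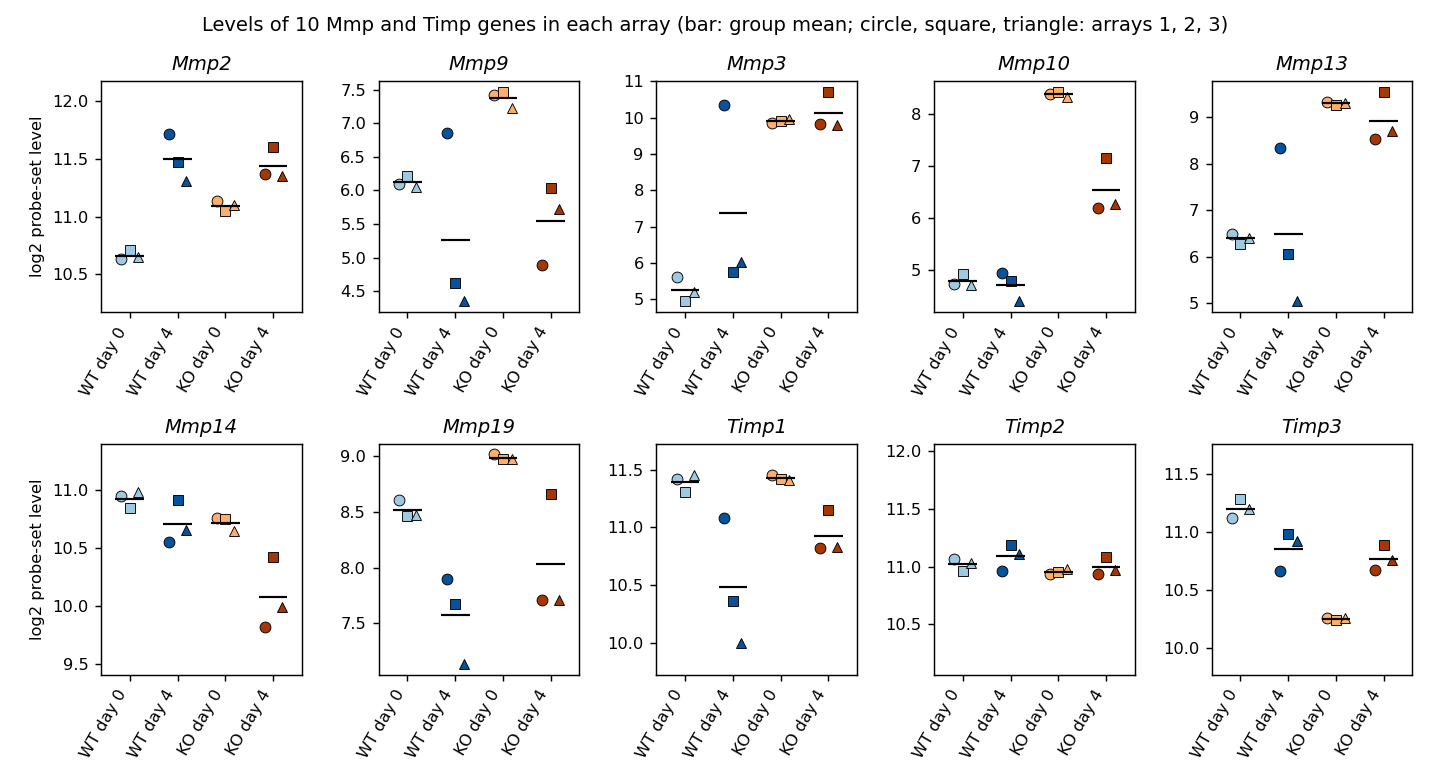
Log2 probe-set level (y axis) of each of the 10 genes in the 4 groups (x axis), with circle, square and triangle for arrays 1, 2 and 3 and a bar at the group mean; each panel has its own y scale. WT day 4 array 1 lies far above the other WT day 4 arrays for Mmp3 (10.36), Mmp13 (8.35) and Mmp9 (6.85), and KO day 4 array 2 is the highest of its group for all 10 genes.

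Before reprogramming, KO cells carried higher levels of Mmp3, Mmp10 and Mmp13, the stromelysins and the collagenase, and a lower level of Timp3, the inhibitor that stays bound to the matrix. Mmp3 was 25.2-fold, Mmp10 12-fold and Mmp13 7.59-fold higher, and Timp3 was 1.93-fold lower. Among all 22180 genes, Mmp3 had the 3rd and Mmp10 the 9th largest difference at day 0. Of the 10 genes, 4 passed as higher and 1 as lower (limma, p-values adjusted over all genes by Benjamini-Hochberg, threshold 0.05), where 2.48% of all genes passed as higher and 3.12% as lower, 5.60% together. The median of the 10 differences was 0.45, against -0.00 over all genes. Since the 10 genes were chosen with earlier results known, the counts and medians here and below are descriptions and not a test of the set. In RNA of whole cultures, fewer cells of a type and less RNA per cell cannot be told apart.

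At day 4 the same 3 MMP genes were still higher in KO cells, by 6.70-fold for Mmp3, 5.47-fold for Mmp13 and 3.54-fold for Mmp10, and Mmp14, the membrane-bound MMP, was 1.55-fold lower. The Mmp3 arrays overlapped, and its call was lost without any 1 of 11 of the 12 arrays (adjusted p of 0.0551 to 0.166), with a trended and robust prior (0.112) and in a fit to those 2 groups alone (0.152). Timp3 did not pass at this day. Of the 10 genes, 3 passed as higher and 1 as lower, where 8.34% and 12.4% of all genes did, 20.7% together, and the median difference was 0.36 against 0.00. Without WT day 4 array 1, 6 of the 10 genes passed, with Mmp9 and Timp1 added. In that run 5929 of all genes passed, against 4596 with all arrays.

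Between day 0 and day 4 lie factor expression, transduction and time in culture, and the groups do not separate them. In WT cells Mmp2 rose, and Mmp19, Timp1 and Timp3 fell. That made 1 of 10 higher and 3 lower, where 11.1% and 11.7% of all genes passed, 22.9% together, and a median of -0.15 against -0.01. In KO cells Mmp2 and Timp3 rose, and Mmp9, Mmp10, Mmp14 and Mmp19 fell, 2 higher and 4 lower, where 13.8% and 16.9% of all genes passed, 30.8% together, with a median of -0.44 against -0.01. The day 4 changes of WT and KO cells differed past the threshold for Mmp10, lower in KO, and Timp3, higher in KO, 1 each way, where 1.81% and 2.15% of all genes passed, 3.95% together. The median difference of changes was -0.45 against -0.01. The test was wide for the genes that vary most within a group, with -1.91 ± 1.23 for Mmp3 (adjusted p = 0.445), -0.98 ± 0.70 for Mmp9 (0.499) and -0.47 ± 0.83 for Mmp13 (0.822), and narrow for Timp2, at -0.03 ± 0.11 (0.936). This last comparison uses all 12 arrays and so shares them with the other 4.

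**Figure D2:**
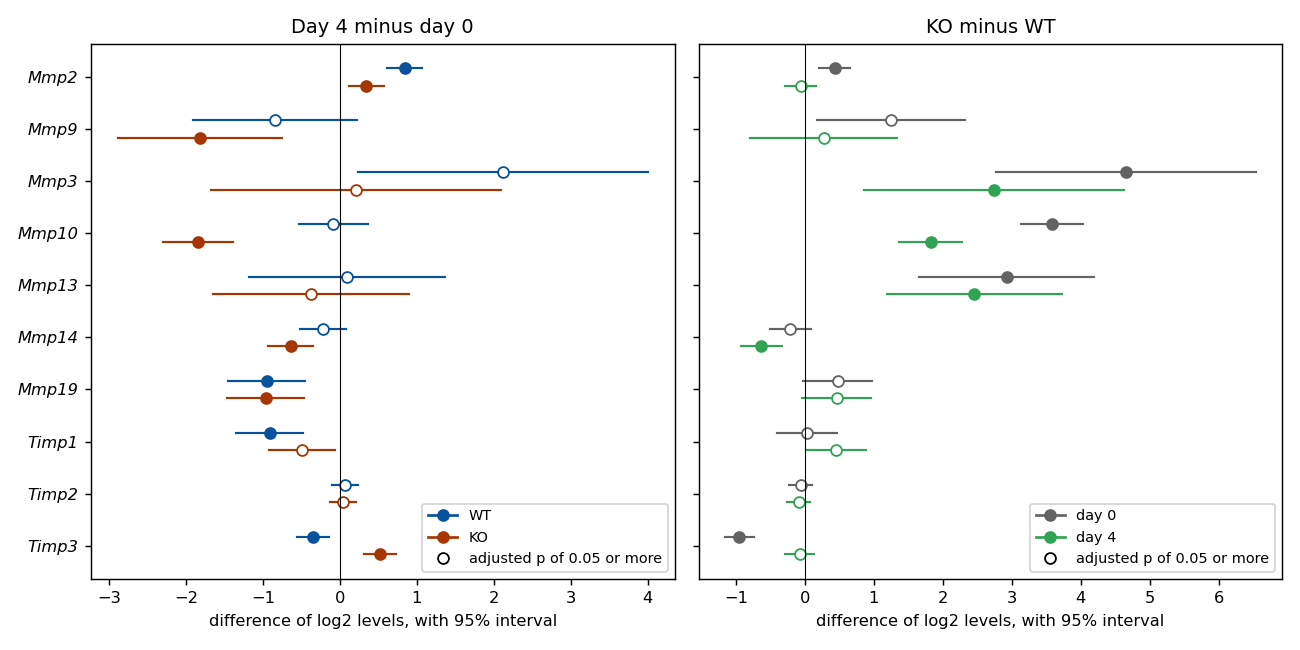
Difference of log2 levels (x axis) for each of the 10 genes (y axis), with the 95% interval of the limma model, for day 4 minus day 0 in WT and KO cells (left) and KO minus WT at day 0 and day 4 (right), n = 3 arrays per group; filled points passed at an adjusted p under 0.05. Mmp3, Mmp10 and Mmp13 lie to the right of 0 in the right panel on both days, and Timp3 changes in opposite directions in the left panel.

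Mmp2 encodes gelatinase A, which digests denatured collagen and the collagen of basement membranes. Its levels were 10.63, 10.71 and 10.65 in WT day 0, 11.72, 11.47 and 11.31 in WT day 4, 11.14, 11.05 and 11.10 in KO day 0 and 11.37, 11.60 and 11.35 in KO day 4. All day 4 arrays lay above all day 0 arrays, and the groups of the 2 genotypes overlapped at day 4 but not at day 0. Mmp2 rose by 0.84 ± 0.10 on the log2 scale in WT cells (SE, n = 3 per group, 1.79-fold, adjusted p = 7.4e-05) and by 0.34 ± 0.10 in KO cells (1.27-fold, adjusted p = 0.0234). The KO rise missed the threshold when KO day 0 array 2 or 3 (adjusted p = 0.0752 and 0.0588) or KO day 4 array 2 (0.0890) was left out. At day 0 the KO cells had 0.43 ± 0.10 more Mmp2 (adjusted p = 0.0274), a call that was lost without any 1 of the 6 day 0 arrays (differences of 0.41 to 0.46, adjusted p of 0.0668 to 0.105). At day 4 the difference was -0.06 ± 0.10 (95% interval -0.29 to 0.16, adjusted p = 0.716), and the sign turned without WT day 4 array 1 (0.05). The difference of changes, -0.50 ± 0.15 (adjusted p = 0.0798), passed with WT day 4 array 3 left out (-0.59, adjusted p = 0.0476) and with KO day 4 array 2 left out (-0.58, adjusted p = 0.0461).

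Mmp9 encodes gelatinase B, an inducible enzyme that macrophages and neutrophils also make. WT day 0 arrays gave 6.09, 6.21 and 6.05, WT day 4 arrays 6.85, 4.62 and 4.35, KO day 0 arrays 7.42, 7.47 and 7.22, and KO day 4 arrays 4.89, 6.03 and 5.72. The KO day 0 arrays were the highest of all 12, and the WT day 4 group held both the next highest array, the one with the high macrophage marker sum, and the lowest values. In KO cells Mmp9 fell by 1.82 ± 0.49 on the log2 scale (3.53-fold, adjusted p = 0.0129), which was -1.50 without KO day 4 array 1 (adjusted p = 0.0611). In WT cells the change was -0.84 ± 0.49 (adjusted p = 0.274) with all arrays and -1.63 without WT day 4 array 1 (adjusted p = 0.000344). KO minus WT at day 0 was 1.25 ± 0.49 (2.38-fold, adjusted p = 0.206). The arrays did not overlap, and without WT day 4 array 1, whose spread enters the shared error, the same difference had an adjusted p of 0.00239. At day 4 KO minus WT was 0.27 ± 0.49 (95% interval -0.79 to 1.34, adjusted p = 0.747). Leaving out WT day 4 array 1 gave 1.06 (adjusted p = 0.00607), and leaving out array 2 or 3 of that group turned the sign (-0.05 and -0.19).

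Mmp3 encodes stromelysin-1, which cuts proteoglycans, fibronectin and other matrix proteins and activates other MMP proenzymes. Its levels were 5.61, 4.94 and 5.21 in WT day 0, 10.36, 5.75 and 6.02 in WT day 4, 9.86, 9.90 and 9.97 in KO day 0 and 9.83, 10.72 and 9.81 in KO day 4. All 6 KO arrays and 1 of the 6 WT arrays, WT day 4 array 1, which also had the highest macrophage marker sum, lay above 9. KO minus WT at day 0 was 4.66 ± 0.87 (25.2-fold, adjusted p = 0.00626), and this call held without each of the 12 arrays. The SE is as large as it is because the model shares 1 spread per gene over the 4 groups, and the SD of Mmp3 was 2.59 in WT day 4 against 0.06 in KO day 0. Without WT day 4 array 1 the day 0 difference was 4.66 ± 0.22 (adjusted p = 1.25e-07). KO minus WT at day 4 was 2.75 ± 0.87 (6.70-fold, adjusted p = 0.0410), with overlapping arrays. Leaving out WT day 4 array 1 gave 4.24 ± 0.25 (adjusted p = 3.77e-07), and without any 1 of the other 11 arrays it was not past the threshold (1.93 to 2.90, adjusted p of 0.0551 to 0.166). The change in WT cells was 2.12 ± 0.87 (adjusted p = 0.106), 0.63 without WT day 4 array 1 (adjusted p = 0.0912) and 2.93 without array 2 (adjusted p = 0.0282). In KO cells it was 0.21 ± 0.87 (95% interval -1.67 to 2.09, adjusted p = 0.890), with the sign turned without KO day 4 array 2 (-0.09).

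Mmp10 encodes stromelysin-2, a close relative of Mmp3 with much the same substrates. WT day 0 arrays gave 4.74, 4.93 and 4.72, WT day 4 arrays 4.94, 4.80 and 4.40, KO day 0 arrays 8.39, 8.43 and 8.33, and KO day 4 arrays 6.19, 7.15 and 6.28. The order was KO day 0, then KO day 4, then the WT groups, and the WT groups overlapped each other but neither KO group. Unlike Mmp3, Mmp10 was not high in WT day 4 array 1. KO minus WT was 3.58 ± 0.21 at day 0 (12-fold, adjusted p = 2.69e-06) and 1.82 ± 0.21 at day 4 (3.54-fold, adjusted p = 0.000149). In KO cells Mmp10 fell by 1.84 ± 0.21 on the log2 scale (3.59-fold, adjusted p = 3.1e-05), whereas in WT cells the change was -0.08 ± 0.21 (95% interval -0.54 to 0.37, adjusted p = 0.842), with the sign turned without WT day 4 array 3 (0.07). The difference of changes was -1.76 ± 0.30 (adjusted p = 0.00738). All WT levels of Mmp10 lay under the array medians of 5.22 to 5.32, and whether they left room for a fall was not tested. These 4 calls on Mmp10 held without each of the 12 arrays.

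Mmp13 encodes the main interstitial collagenase of the mouse, which cuts fibrillar collagen. It gave 6.48, 6.28 and 6.39 in WT day 0, 8.35, 6.06 and 5.03 in WT day 4, 9.33, 9.28 and 9.32 in KO day 0 and 8.54, 9.56 and 8.70 in KO day 4. Every KO array lay above every WT array, and WT day 4 array 1, with the high macrophage marker sum, came closest to the KO range. KO minus WT was 2.92 ± 0.59 at day 0 (7.59-fold, adjusted p = 0.00963) and 2.45 ± 0.59 at day 4 (5.47-fold, adjusted p = 0.0107). Leaving out WT day 4 array 1 gave 3.39 ± 0.29 at day 4 (adjusted p = 6.59e-06). The day 0 call was lost with a trended and robust prior (adjusted p = 0.0536), and the day 4 call in a fit to those 2 groups alone (adjusted p = 0.0768). The changes from day 0 to day 4 did not pass, at 0.09 ± 0.59 in WT cells (95% interval -1.18 to 1.36, adjusted p = 0.942) and -0.38 ± 0.59 in KO cells (-1.65 to 0.89, adjusted p = 0.683). In WT cells the value was -0.84 without WT day 4 array 1 (adjusted p = 0.0544).

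Mmp14 encodes a membrane-bound MMP that cuts collagen at the cell surface and activates the Mmp2 proenzyme. Its levels were 10.95, 10.85 and 10.99 in WT day 0, 10.55, 10.92 and 10.66 in WT day 4, 10.76, 10.75 and 10.65 in KO day 0 and 9.82, 10.42 and 9.99 in KO day 4. The KO day 4 arrays were the lowest of all 12, and the other 3 groups lay between 10.55 and 10.99. In KO cells Mmp14 fell by 0.64 ± 0.14 on the log2 scale (1.56-fold, adjusted p = 0.00302), against -0.22 ± 0.14 in WT cells (95% interval -0.52 to 0.08, adjusted p = 0.306). KO minus WT at day 4 was -0.63 ± 0.14 (adjusted p = 0.00633), which did not pass in a fit to those 2 groups alone (adjusted p = 0.0561), and at day 0 it was -0.21 ± 0.14 (adjusted p = 0.503). The difference of changes was -0.42 ± 0.19 (adjusted p = 0.260), and -0.59 without KO day 4 array 2 (adjusted p = 0.0454).

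Mmp19 encodes a secreted MMP that digests basement membrane proteins. WT day 0 arrays gave 8.61, 8.46 and 8.47, WT day 4 arrays 7.90, 7.67 and 7.13, KO day 0 arrays 9.02, 8.98 and 8.98, and KO day 4 arrays 7.71, 8.66 and 7.71. Within each genotype, all day 4 arrays were lower than all day 0 arrays. Of the day 4 arrays, KO day 4 array 2 alone was above the WT day 0 arrays. Mmp19 fell by 0.95 ± 0.23 on the log2 scale in WT cells (1.93-fold, adjusted p = 0.00913) and by 0.97 ± 0.23 in KO cells (1.95-fold, adjusted p = 0.00618). Both calls held without each of the 12 arrays. The difference of changes was -0.02 ± 0.33 (95% interval -0.73 to 0.69, adjusted p = 0.985), an interval that leaves room for changes of different size. KO minus WT was 0.48 ± 0.23 at day 0 (adjusted p = 0.330), where the arrays did not overlap and a fit to those 2 groups alone gave an adjusted p of 0.00200, and 0.46 ± 0.23 at day 4 (adjusted p = 0.189).

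Timp1 encodes a secreted inhibitor of most soluble MMPs. Its levels were 11.42, 11.31 and 11.45 in WT day 0, 11.08, 10.36 and 10.00 in WT day 4, 11.45, 11.42 and 11.41 in KO day 0 and 10.82, 11.15 and 10.83 in KO day 4. The 2 day 0 groups overlapped, and every day 4 array lay below them. In WT cells Timp1 fell by 0.91 ± 0.20 on the log2 scale (1.89-fold, adjusted p = 0.00468). In KO cells the change was -0.49 ± 0.20 (adjusted p = 0.0827). It passed with WT day 4 array 1 or 3 left out (adjusted p = 0.00351 and 0.0290), neither of which enters the difference itself. The same change passed in a limma fit to the 2 KO groups alone (adjusted p = 0.00660) and with array weights (0.0125). KO minus WT was 0.03 ± 0.20 at day 0 (95% interval -0.40 to 0.47, adjusted p = 0.969), with the sign turned without WT day 0 array 2 (-0.0097). At day 4 it was 0.46 ± 0.20 (adjusted p = 0.132), and 0.75 ± 0.12 without WT day 4 array 1 (adjusted p = 0.000699). The difference of changes was 0.42 ± 0.28 (adjusted p = 0.467), and 0.72 without WT day 4 array 1 (adjusted p = 0.0170).

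Timp2 was the flattest of the 10 genes. WT day 0 arrays gave 11.07, 10.96 and 11.03, WT day 4 arrays 10.96, 11.19 and 11.11, KO day 0 arrays 10.94, 10.95 and 10.98, and KO day 4 arrays 10.94, 11.08 and 10.97. Neighbouring groups in the order of their means all overlapped. Its changes were 0.07 ± 0.08 in WT cells (95% interval -0.10 to 0.24, adjusted p = 0.622) and 0.04 ± 0.08 in KO cells (-0.13 to 0.21, adjusted p = 0.738). KO minus WT was -0.06 ± 0.08 at day 0 (-0.23 to 0.11, adjusted p = 0.773) and -0.09 ± 0.08 at day 4 (-0.26 to 0.08, adjusted p = 0.467). The intervals of these 4 comparisons lay between -0.26 and 0.24.

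Timp3 encodes the inhibitor that binds to the matrix and also blocks several ADAM and ADAMTS enzymes. Its levels were 11.12, 11.29 and 11.20 in WT day 0, 10.66, 10.98 and 10.92 in WT day 4, 10.26, 10.24 and 10.26 in KO day 0 and 10.67, 10.89 and 10.76 in KO day 4. The 2 day 0 groups were the extremes, WT highest and KO lowest, and the 2 day 4 groups lay between them and overlapped. KO minus WT was -0.95 ± 0.09 at day 0 (adjusted p = 8.2e-05) and -0.08 ± 0.09 at day 4 (95% interval -0.28 to 0.13, adjusted p = 0.624). Timp3 fell by 0.35 ± 0.09 on the log2 scale in WT cells (1.28-fold, adjusted p = 0.0164) and rose by 0.52 ± 0.09 in KO cells (1.44-fold, adjusted p = 0.00103), and the difference of changes was 0.87 ± 0.13 (adjusted p = 0.00501). The WT fall missed the threshold with WT day 0 array 2 left out (-0.31, adjusted p = 0.0729), with WT day 4 array 1 left out (-0.26, adjusted p = 0.0536) and in a fit to those 2 groups alone (adjusted p = 0.0536). The other 3 calls on Timp3 held without each of the 12 arrays.

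**Figure D3:**
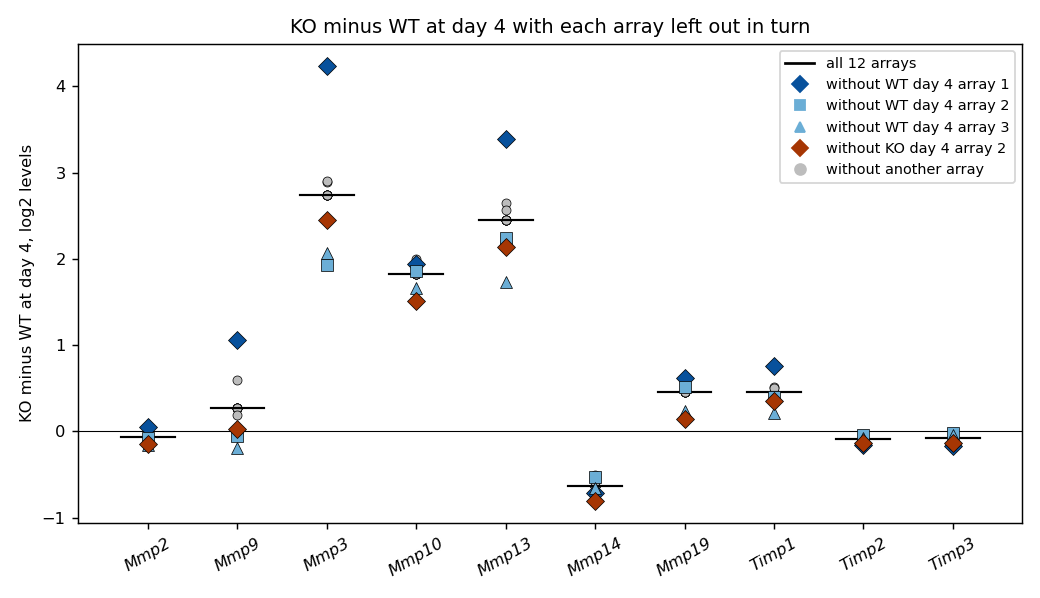
KO minus WT at day 4 in log2 levels (y axis) for each of the 10 genes (x axis), recomputed with each of the 12 arrays left out in turn; the bar is the value with all arrays. Leaving out WT day 4 array 1 moved Mmp3 from 2.75 to 4.24, Mmp13 from 2.45 to 3.39 and Mmp9 from 0.27 to 1.06, while Mmp10 stayed between 1.52 and 2.00.

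Along chromosome 9 the MMP cluster runs, in the order of the RefSeq gene table, from Mmp13 through Mmp12, Mmp1b, Mmp3, Mmp1a, Mmp10, Mmp8, Mmp27 and Mmp20 to Mmp7, with 10 protein-coding genes between its ends and 0 of them outside the MMP family. At day 0, 4 genes of the cluster passed as higher in KO cells, Mmp13, Mmp12, Mmp3 and Mmp10, beside 2.48% of all genes. Mmp12, the macrophage elastase, was 1.08 ± 0.22 higher (adjusted p = 0.0116), with levels of 4.64, 4.45 and 4.69 in WT day 0 and 5.74, 5.57 and 5.70 in KO day 0. That call ended with WT day 0 array 2 or KO day 0 array 1 left out (adjusted p up to 0.0584). Mmp1b and Mmp1a, on either side of Mmp3, differed by 0.22 ± 0.09 (adjusted p = 0.240) and 0.01 ± 0.08 (adjusted p = 0.982), and both had group means under 3.75, the 25th percentile of all genes, so a difference may not be detectable there. Mmp8, a collagenase of neutrophils, differed by 0.48 ± 0.16 (adjusted p = 0.129), and Mmp27, Mmp20 and Mmp7 by 0.02 to 0.12. At day 4 Mmp12 differed by 0.33 ± 0.22 (adjusted p = 0.331), where WT day 4 array 1, with the high macrophage marker sum, gave 5.74 and the other WT day 4 arrays 4.56 and 4.73.

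**Figure D4:**
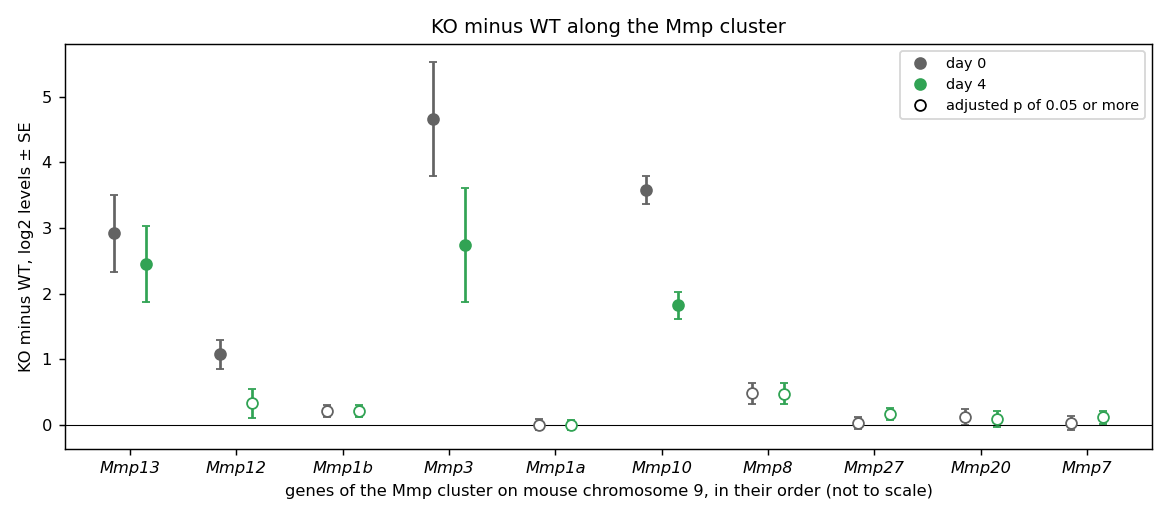
KO minus WT in log2 levels with the SE of the limma model (y axis, n = 3 arrays per group) for the 10 genes of the MMP cluster in their order on chromosome 9 (x axis, not to scale), at day 0 and day 4; filled points passed at an adjusted p under 0.05. Mmp13, Mmp3 and Mmp10 stand at 1.82 or above on both days, and Mmp1b and Mmp1a, on either side of Mmp3, lie at 0.22 or below.

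Across the 12 arrays, Mmp3 and Mmp13 had the most similar patterns among the 10 genes (Pearson r = 0.93), followed by Mmp19 and Timp1 (0.90), Mmp10 and Mmp13 (0.86), Mmp9 and Mmp19 (0.85) and Mmp9 and Timp1 (0.85). Mmp10 and Timp3 were the most opposed (-0.85). These values describe 12 arrays that share 4 groups, so group differences and WT day 4 array 1 enter them. Over all named genes, those most like Mmp3 were Dhx58 (r = 0.99), Ifi204 (0.98) and Sod2 (0.98), those most like Mmp13 were Nfkbiz (0.98), Pml (0.98) and Cxcl5 (0.98), and those most like Mmp10 were Crabp1 (0.97), Fndc3a (0.96) and Rac3 (0.95). Dhx58 had group means of 5.33, 6.63, 7.57 and 7.74, and Cxcl5 of 8.42, 8.39, 11.31 and 10.41, in the order WT day 0, WT day 4, KO day 0 and KO day 4. Crabp1 moved less, with means of 11.56, 11.60, 12.18 and 11.90 in that order.

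Counts over the related lists are read against the shares of all genes past the threshold: 11.1% higher and 11.7% lower in WT day 4 against day 0, 13.8% and 16.9% in KO day 4 against day 0, 2.48% and 3.12% in KO against WT at day 0, 8.34% and 12.4% at day 4, and 2.15% and 1.81% in the difference of changes. Of 16 further MMP and TIMP genes measured, 1 was higher and 1 lower in KO cells at day 0, Mmp12 and Mmp17 (-0.49 ± 0.10, adjusted p = 0.00956), the latter lost without WT day 0 array 1 or KO day 0 array 3 (adjusted p up to 0.0550). By limma 0 of 16 passed between the genotypes at day 4 and 0 in the difference of changes, with 2 and 3 at an unadjusted p under 0.05. Mmp28, an MMP of skin and other epithelia, rose in WT cells by 1.37 ± 0.11 (adjusted p = 2.29e-06) and in KO cells by 1.82 ± 0.11 (adjusted p = 2.22e-07). Its levels went from 6.09, 5.99 and 6.19 to 7.38, 7.42 and 7.58 in WT cells and from 5.88, 5.70 and 5.64 to 7.72, 7.34 and 7.60 in KO cells, with no overlap between days. Of the keratinocyte markers 3 of 5 rose in WT cells, Krt14 (1.51), Dsp (1.02) and Trp63 (0.43). In KO cells 3 of 5 rose, Dsp (1.18), Krt14 (0.67) and Trp63 (0.44), and 1 fell, Krt10 (-0.39). Krt14 thus rose less in KO than in WT cells, unlike Mmp28. In WT cells the summed level of these markers lay between 7.12 and 7.18 at day 0 and between 7.84 and 8.03 at day 4. In KO cells it lay between 6.86 and 7.20 at day 0 and between 7.30 and 7.45 at day 4. Their part in the Mmp28 change was not tested. Mmp23 fell by 1.12 ± 0.16 in WT and by 1.02 ± 0.16 in KO cells on the log2 scale (adjusted p = 0.000218 and 0.000325). Mmp17 also fell in WT cells (-0.61, adjusted p = 0.000559), and Mmp16 in KO cells (-0.58, adjusted p = 0.0202), the last lost without KO day 0 array 2 or 3 or KO day 4 array 3 (adjusted p up to 0.0893). Medians of the list lay between -0.05 and 0.10 in the 5 comparisons, and those of all genes between -0.01 and 0.00.

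Of 12 genes that activate, anchor or block MMPs, 2 rose and 6 fell in WT cells (median -0.33, beside 22.9% of all genes past the threshold), among them Reck, a membrane-bound MMP inhibitor (1.29, adjusted p = 5.24e-07), Cd44, a hyaluronan receptor that holds MMPs at the cell surface (-1.02, adjusted p = 1.49e-06), Cav1 (-0.99, adjusted p = 3.23e-06) and Thbs1 (-0.77, adjusted p = 0.000171). In KO cells 2 rose and 3 fell (median -0.03, beside 30.8%): Reck (1.77) and Bsg, an inducer of MMPs (0.28), were higher, and Cd44 (-0.59), Tfpi2, a serine protease inhibitor (-1.74), and Furin, the convertase that activates Mmp14 (-0.55), were lower. The Bsg call was lost without any 1 of 7 arrays (adjusted p up to 0.126). At day 0, KO cells had less Pcsk6 (-1.11, adjusted p = 0.000626) and Cav1 (-0.48, adjusted p = 0.00351) and more Pcsk5 (0.35, adjusted p = 0.0260), the last lost without any 1 of the 6 day 0 arrays (adjusted p up to 0.110). At day 4, 6 of 12 were higher and 1 lower in KO cells (median 0.35, beside 8.34% and 12.4% of all genes), with Cd44 at 0.47, Thbs1 at 0.53, Cav1 at 0.32 and Pcsk6 at -0.68, where Cav1 did not pass without WT day 4 array 3 (adjusted p = 0.0650). The day 4 changes differed for Cav1 (0.80, adjusted p = 0.00351), Reck (0.48, adjusted p = 0.0373) and Cd44 (0.43, adjusted p = 0.0402). The calls on Reck and Cd44 were lost without any 1 of 9 and 11 arrays (adjusted p up to 0.0950 for Cd44). Lcn2, whose protein binds Mmp9 and which is named here after its values were seen, had the largest difference of the list without passing, 3.78 at day 0 (adjusted p = 0.0725) and 3.25 at day 4 (adjusted p = 0.0552).

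The plasminogen system, whose product plasmin activates several MMP proenzymes, fell at its activators in both genotypes. Plaur, the urokinase receptor, was lower at day 4 by 2.08 ± 0.16 in WT (log2, adjusted p = 1.98e-06) and 1.17 ± 0.16 in KO cells (adjusted p = 0.000126). Urokinase itself, Plau, fell by 1.66 in WT and by 1.47 in KO cells, and Plat, the tissue activator, fell by 1.62 and by 1.10, while Plgrkt rose in WT (0.44) and S100a10 in KO cells (0.27, lost without KO day 0 array 1, adjusted p = 0.0879). That was 1 higher and 3 lower of 9 in each genotype, beside 22.9% of all genes in WT and 30.8% in KO cells. By limma 0 of 9 passed between the genotypes at day 0, with 5 at an unadjusted p under 0.05, beside 5.60% of all genes. At day 4, 2 were higher in KO cells, Plat (0.61, adjusted p = 0.0180) and Plaur (0.51, adjusted p = 0.0403), beside 8.34% of all genes higher. Plat was not past the threshold without WT day 4 array 3 or KO day 4 array 2 (adjusted p up to 0.0766), nor Plaur without any 1 of 10 arrays (adjusted p up to 0.165). The day 4 changes differed for Plaur (0.91, adjusted p = 0.0433) and Plgrkt (-0.49, adjusted p = 0.0452), each lost without any 1 of 10 arrays (adjusted p up to 0.106 and 0.108).

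Among 18 ADAM and ADAMTS genes, relatives of the MMPs that shed surface proteins or cut proteoglycans, 4 rose and 7 fell in WT cells (22.9% of all genes passed) and 4 rose and 6 fell in KO cells (30.8%). Adam12 fell by 1.99 in WT and by 2.10 in KO cells on the log2 scale, Adam19 by 1.62 and Adam9 by 0.79 in WT cells, and Adamts14 by 1.07 in KO cells. Adamts7 rose in WT (1.03) and Adamts5, an aggrecanase, in KO cells (1.46), as did Adam15 (0.72). At day 0, KO cells were higher for 1, Adamts7 (0.87, adjusted p = 0.00166), and lower for 5, among them Adamts5 (-0.79, adjusted p = 0.00199), Adam8 (-1.04, adjusted p = 0.00225) and Adamts12 (-0.90, adjusted p = 0.00549). At day 4, 1 was higher, Adamts5 (0.40, adjusted p = 0.0404), and 3 lower, Adam8 (-1.19), Adamts15 (-1.03) and Adam33 (-0.48). Among all genes, 5.60% passed between the genotypes at day 0 and 20.7% at day 4. The Adamts5 and Adam33 calls at day 4 were lost without any 1 of 10 and 9 arrays (adjusted p up to 0.166 and 0.152). The day 4 changes differed for Adamts5 (1.19 ± 0.18, adjusted p = 0.00408) and Adamts7 (-1.08 ± 0.19, adjusted p = 0.00891), and both held without each of the 12 arrays.

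Cathepsins are lysosomal proteases, and cystatins their inhibitors. Of 14 genes, 3 rose and 1 fell in WT cells (22.9% of all genes passed), Ctsf (1.45), Ctsl (0.39), Ctsb (0.27) and Cst3 (-0.29). Of these, Ctsf alone held without each of the 12 arrays (adjusted p up to 0.131 for Ctsl, 0.0826 for Ctsb and 0.0689 for Cst3). WT day 4 array 1 was among the arrays whose omission ended each of those 3 calls. In KO cells 3 rose and 3 fell (30.8% of all genes passed), with Ctsf at 1.38, Ctso at 0.66, Cstb at -0.62 and Ctsk, the collagen-cutting cathepsin K, at -0.88. KO cells had less Ctss, a cathepsin of macrophages, at day 0 (-1.36, adjusted p = 0.000215) and day 4 (-1.39, adjusted p = 0.000120), beside the lower macrophage markers. They had more Ctsh (1.04 and 1.63) and Ctsl (0.65 and 0.46), and less Cst3 at day 0 (-0.31, adjusted p = 0.0411, lost without any 1 of 8 arrays, up to 0.158) and Cstb at day 4 (-0.40). Ctsl at day 4 was not past the threshold without WT day 4 array 2 or 3 or KO day 4 array 2 (adjusted p up to 0.0675). That made 2 higher and 2 lower of 14 at day 0 (5.60% of all genes passed), and 4 and 4 at day 4 (20.7%), and by limma 0 passed in the difference of changes, with 6 at an unadjusted p under 0.05.

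Of 19 genes for AP-1 and ETS factors and for cytokines that induce MMP genes, 2 were higher and 0 lower in KO cells at day 0 by limma (7 at an unadjusted p under 0.05 in either direction), the ETS factor Etv1 (0.70, adjusted p = 0.00122) and the cytokine Lif (0.77, adjusted p = 0.0287, lost without any 1 of the 6 day 0 arrays, up to 0.109). The median was 0.26, and 5.60% of all genes passed. At day 4, 6 were higher and 1 lower (median 0.21, beside 20.7%), with the AP-1 subunit Fosl2 at 0.79 (adjusted p = 0.00466), the interleukin-1 receptor Il1r1 at 1.00 (adjusted p = 0.0134), Etv5 at 0.72 (adjusted p = 0.000782) and Jund at -0.52 (adjusted p = 0.00275). The Il1r1 difference was not past the threshold without KO day 4 array 2 (adjusted p = 0.0522). From day 0 to day 4, 1 rose and 5 fell in WT cells (22.9% of all genes passed), with Etv1 at 0.83, Etv4 at -1.23, Ets1 at -0.61 and Il1r1 at -1.29. In KO cells 3 rose and 6 fell (30.8%), with Fos at 0.69, Etv5 at 1.06, Etv4 at -1.04 and Jund at -0.71. The changes differed for Etv5 (0.79, adjusted p = 0.0158) and Jund (-0.64, adjusted p = 0.0239), the latter lost without any 1 of 5 arrays (adjusted p up to 0.0666).

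Among 11 matrix proteins that MMPs cut, 1 rose and 8 fell in WT cells (median -0.41, beside 22.9% of all genes) and 2 rose and 4 fell in KO cells (median -0.07, beside 30.8%). Dcn, decorin, rose in both (1.68 and 0.99), Eln, elastin, rose in KO cells (1.84, adjusted p = 0.000839), Col4a1 fell by 0.89 in WT and by 0.53 in KO cells, Tnc, tenascin C, fell by 1.72 and by 0.95, and Nid1 fell by 0.52 in WT cells. KO cells had less Eln on both days (-3.22 ± 0.33 at day 0, adjusted p = 9.06e-05, and -1.90 ± 0.33 at day 4, adjusted p = 0.00166), less Col4a1 (-0.57) and Col4a2 (-0.56) and more Dcn (0.75) at day 0, and more Tnc (1.16) and less Col3a1 (-0.47) at day 4. That was 1 higher and 3 lower at day 0 (5.60% of all genes passed) and 1 and 2 at day 4 (20.7%). The Col3a1 call was lost without WT day 4 array 2 or KO day 4 array 1 or 3 (adjusted p up to 0.0853). The changes differed for Dcn (-0.70, adjusted p = 0.0273), a call lost without any 1 of 6 arrays (adjusted p up to 0.0754).

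**Figure D5:**
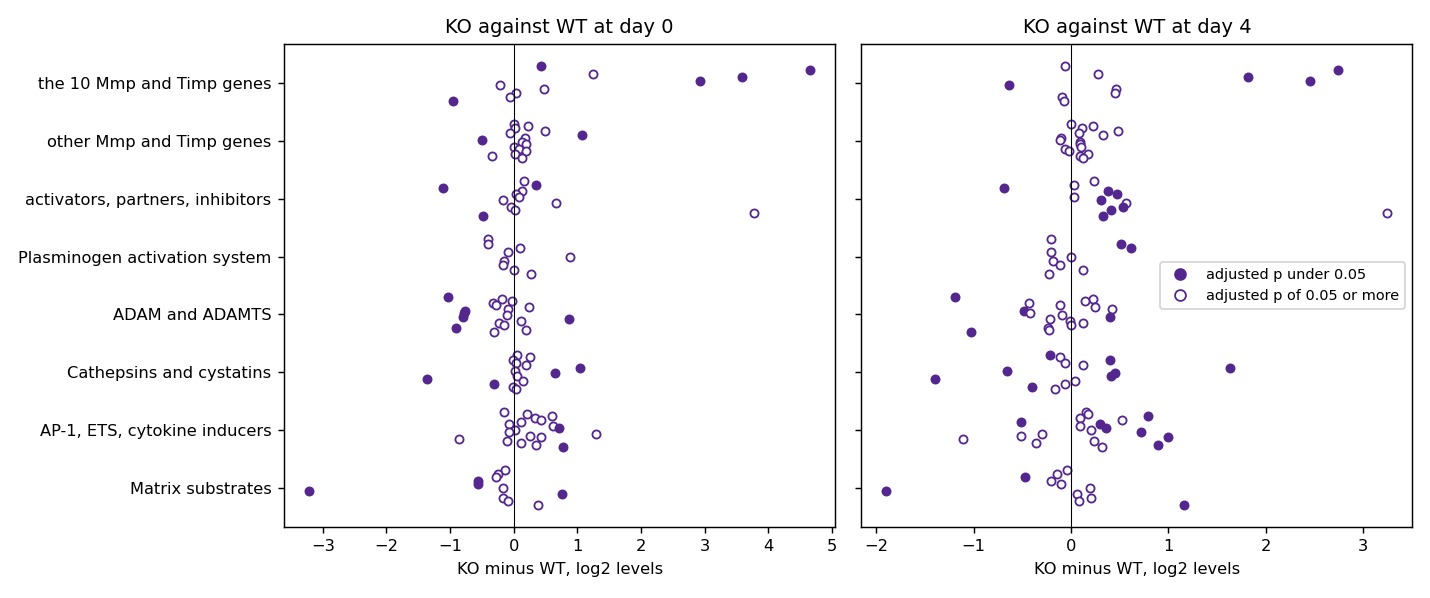
KO minus WT in log2 levels (x axis) at day 0 (left) and day 4 (right) for the 10 genes and for the genes of 7 related lists (y axis), 1 point per gene; filled points passed at an adjusted p under 0.05. Mmp3, Mmp10 and Mmp13 are the largest filled points to the right of 0 on both days, the filled point at -3.22 is Eln, and the open points at 3.78 and 3.25 are Lcn2.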

How the data were processed

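RNA of 12 samples was labelled with biotin from the whole transcript and hybridised to 1-colour Affymetrix arrays, per the labels. The deposited values are log2 levels of 41345 probe sets, 1 column per array, made by the authors with Affymetrix Expression Console, per the submitters' processing notes; the sources used here do not name its background correction, normalization or summary. No further normalization or filter was applied, and 0 columns belonged to other samples. Of the probe sets, 23521 had 1 gene symbol in the platform's table, 1814 several and 16010 none, and a gene was read by its probe set with the highest 12-array mean, giving 22180 genes. All 10 members were measured, each by 1 probe set, and all had a mean over the 25th percentile of genes.

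All genes and 12 arrays entered 1 limma model (limma 3.58.1, R 4.3.3) of 4 group means, without covariates, with 8 residual degrees of freedom and 4.56 from the prior. The 5 comparisons were two-sided, with p-values adjusted over all genes by Benjamini-Hochberg and a threshold of 0.05. Errors are SEs of the model, n = 3 per group. The model was tested on simulated data with known changes and normal noise of 1 SD per gene in all 4 groups. The real groups differed in spread, so that test does not cover unequal spread or an array that stands apart. For arrays, their number limits the precision.

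The members and lists were chosen with earlier results of these data known. Genes named were the 10 members, up to 4 genes past the threshold per list (all where 5 or fewer passed), and the 3 genes most like each of the 3 members with the widest group means. Alternatives were a filter on low levels, quantile normalization, probe-set averages, a trended robust prior, each array left out, weights per array, the replicate number as a block, and models of only the 2 groups compared.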

Additional observations from a re-analysis of the deposited data

Results flagged for a closer look

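From day 0 to day 4, KO and WT cells changed differently by the test of the difference itself (limma, adjusted p under 0.05) for Mmp10, at -1.76, and for Timp3, at 0.87, both on the log2 scale, KO minus WT. Mmp10 was lower at day 4 than at day 0 in KO cells (6.54 against 8.38) and near 4.7 to 4.8 in both WT groups. These WT levels lay under the array medians of 5.22 to 5.32, and whether they left room for a fall was not tested. Timp3 moved in opposite directions, from 11.20 to 10.85 in WT cells and from 10.25 to 10.77 in KO cells.

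The same test passed for genes of the related lists. The values were 1.19 for Adamts5, -1.08 for Adamts7, 0.80 for Cav1, 0.79 for Etv5, 0.91 for Plaur, 0.48 for Reck, 0.43 for Cd44, -0.49 for Plgrkt, -0.64 for Jund and -0.70 for Dcn. Those of Plaur, Reck, Cd44, Plgrkt, Jund and Dcn were each lost without any 1 of 5 or more arrays.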

How the results depend on the processing

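Of 980 recomputed differences of the 10 genes, 898 kept direction and side of the threshold, 29 lost the call, 29 gained one and 24 turned sign. Of 21 calls, 13 held in every alternative run and 0 turned sign. Leaving out 1 array gave 3 to 5 of the 10 genes in WT day 4 against day 0 (3977 to 5165 of all genes), 5 to 7 in KO day 4 against day 0 (5539 to 7646), 4 to 6 in KO against WT at day 0 (769 to 1936), 3 to 6 at day 4 (2946 to 5929) and 2 to 4 in the difference of changes (395 to 2140). With array weights, KO against WT at day 0 had 2562 genes and the difference of changes 1852, and Mmp13 in WT cells turned sign (-0.43). In fits to the compared groups alone, KO against WT had 2453 genes at day 0 and 1923 at day 4, where 1 of the 10 genes passed, Mmp10. Quantile normalization turned the sign of the difference of changes of Mmp19 (0.036). Both WT day 4 array 1 and KO day 4 array 2 were also left out, an omission chosen after seeing the data. There 7 of the 10 genes passed in WT day 4 against day 0 (5458 of all genes), and 5 (2521 of all genes) in the difference of changes. Mmp13 in WT cells (-0.84), Mmp3 (-0.09) and Timp2 (-0.0012) in KO cells and the difference of changes of Mmp13 (0.15) turned sign there. Single omissions, or that pair, turned signs within these ranges: in WT cells Mmp10 (-0.198 to 0.0705) and Mmp13 (-0.842 to 0.817), in KO cells Mmp3 (-0.0884 to 0.365) and Timp2 (-0.0012 to 0.0708), KO against WT Timp1 at day 0 (-0.00971 to 0.0609), Mmp2 (-0.160 to 0.0474) and Mmp9 (-0.189 to 1.06) at day 4, and in the difference of changes Mmp13 (-1.19 to 0.465), Mmp19 (-0.337 to 0.147) and Timp2 (-0.134 to 0.0260). None of these was called with all arrays. The cause was not tested. The labels do not say whether the replicate number pairs the arrays. Of 18 same-numbered pairs, 2 had deviations with a correlation over 0.1. Both joined WT and KO arrays of day 4, at 0.18 for array 2 and 0.12 for array 3, with -0.01 for array 1. The differently numbered WT day 4 array 3 and KO day 4 array 1 also had 0.12, so a pairing at day 4 cannot be told from these values. With the replicate number as a block, 4, 6, 5, 4 and 2 of the 10 genes passed in the 5 comparisons, as without it. Of all genes, 4931, 6647, 1181, 4417 and 801 passed with the block.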
